A study of Homo sapiens with 6 samples.

Results

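TNF superfamily ligand genes were followed in U251, an established line of human glioblastoma cells, after the cells had been given the founding member of that family as a protein. The genes were chosen by name in the gene expression table, as TNF, LTA, LTB, TNFSF4, TNFSF9, TNFSF10, TNFSF12, TNFSF13B, TNFSF14 and TNFSF15, and all 10 were found among its 58735 genes. A total of 6 poly(A)-selected RNA-seq libraries were compared. The NC group (the controls, n = 3) was incubated for 24 h with sterile deionized water, and the TNF-α group (n = 3) was incubated for 24 h with recombinant human TNF-α at 10 ng/mL. All cells were of the same line and no genetic change separated the groups. The labels describe the 3 libraries of each group as separate biological replicates. The question asked of these genes was which ligands of the family the cells transcribed, and whether their transcript levels differed after a day of TNF-α.

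Ligands of this family are made mostly as membrane proteins that act as trimers. Many can be cut from the cell surface into a soluble form, and each engages its own receptors of the TNF receptor superfamily. Those receptors either carry a death domain or recruit TRAF adaptor proteins, and both routes can switch on NF-kB. TNF is a classical NF-kB target gene in leukocytes, so that the cytokine can induce its own transcript there. In glioblastoma tissue, infiltrating immune cells are regarded as the main source of TNF. The added TNF-α was a protein and carried no RNA, so that the TNF values below are transcripts of the cells.

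The regulatory sequences of the genes on which the results turn are shown here, because TNF and TNFSF10 are known for control by NF-kB and by interferon, respectively. RefSeq promoter windows, 250 bases before to 50 bases after the annotated start on GRCh38.p14, were found for 9 of the 10 ligands, and TNFSF12 had no entry. Capitals mark letters that match 1 of 4 patterns searched on both strands, namely GGG and CC with any 5 bases between them (NF-kB), TGANTCA (AP-1), a pair of GAAA with any 2 bases between them (interferon-stimulated response element) and, for the TATA box, TATAAA. Each window is printed 5′ to 3′ on the strand of its gene, which is plus for TNF (chr6:31575315-31575614) and TNFSF13B (chr13:108269379-108269678), and minus for TNFSF10 (chr3:172523381-172523680) and TNFSF4 (chr1:173205483-173205782).
TNF: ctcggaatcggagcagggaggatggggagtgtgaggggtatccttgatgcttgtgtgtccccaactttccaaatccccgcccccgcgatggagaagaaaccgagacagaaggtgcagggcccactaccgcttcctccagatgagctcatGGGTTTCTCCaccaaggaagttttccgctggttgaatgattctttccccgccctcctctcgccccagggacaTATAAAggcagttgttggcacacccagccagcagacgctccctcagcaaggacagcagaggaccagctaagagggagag
TNFSF10: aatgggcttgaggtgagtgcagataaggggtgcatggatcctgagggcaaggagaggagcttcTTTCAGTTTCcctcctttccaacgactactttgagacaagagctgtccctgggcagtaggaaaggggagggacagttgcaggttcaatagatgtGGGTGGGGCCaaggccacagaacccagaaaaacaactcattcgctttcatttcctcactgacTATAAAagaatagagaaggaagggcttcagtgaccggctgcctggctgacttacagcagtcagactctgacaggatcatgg
TNFSF13B: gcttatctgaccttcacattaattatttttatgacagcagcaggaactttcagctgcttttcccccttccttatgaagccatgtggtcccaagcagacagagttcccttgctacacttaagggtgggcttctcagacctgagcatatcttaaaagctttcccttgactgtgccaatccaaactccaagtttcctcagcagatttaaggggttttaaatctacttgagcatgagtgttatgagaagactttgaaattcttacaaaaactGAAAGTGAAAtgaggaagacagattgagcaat
TNFSF4: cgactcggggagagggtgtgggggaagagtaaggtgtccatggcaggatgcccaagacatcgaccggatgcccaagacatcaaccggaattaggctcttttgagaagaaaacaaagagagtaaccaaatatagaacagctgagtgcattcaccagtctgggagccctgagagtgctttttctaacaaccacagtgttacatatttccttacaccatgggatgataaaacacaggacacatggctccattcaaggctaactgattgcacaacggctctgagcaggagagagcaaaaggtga

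The TNF window held an NF-kB match that ended 92 bases upstream of the start and a TATA box 29 to 24 bases upstream. The TNFSF10 window held an NF-kB match that ended 84 bases upstream, an interferon response element on the opposite strand 187 to 178 bases upstream, and a TATA box 31 to 26 bases upstream. The TNFSF13B window held an interferon response element 18 to 27 bases after the start, and the TNFSF4 window held none of the 4 patterns. The RefSeq starts of TNFSF13B and TNFSF4 lie inside the gene spans of the deposited table, which begin at a more distal start. Of 27305 promoter windows of the same length, 58.0% held the NF-kB pattern, 11.95% the TATA box, 7.76% the AP-1 pattern and 3.65% the interferon pattern. Among the windows not printed, LTB held 8 NF-kB matches, TNFSF14 held 6, TNFSF9 held 3, LTA held 1 and TNFSF15 held 0. Overlapping matches and both strands were counted. TNFSF9 and TNFSF14 also held an interferon match, TNFSF14 and TNFSF15 an AP-1 match, and TNFSF9 a TATA box. A match of letters is a description and no evidence of binding.

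TNF transcripts are also known for an AU-rich element, a run of ATTTA pentamers in the 3′ untranslated region that marks a messenger for rapid decay. Bases 462 to 491 of the 799-base 3′ untranslated region of TNF (GENCODE release 29) carried 5 ATTTA pentamers, shown in capitals.
TNF 3′ element: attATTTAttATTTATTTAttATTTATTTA

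The whole untranslated region held 9 ATTTA pentamers and 5 copies of the stricter nonamer TTATTTATT, counting overlapping copies. The nonamer was present in 8.16% of 19109 genes with an annotated 3′ untranslated region, and 0.691% of them held 3 or more copies. Among the other ligands LTA held 1 nonamer and the remaining 8 held none, although TNFSF15 and TNFSF13B had 15 and 12 pentamers in their longer 3′ regions of 5817 and 1546 bases.

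The 6 libraries held between 31992167 and 37897044 reads in genes. Whole reads were recovered from the deposited values. Between 1872 and 2447 genes per library had exactly 2 reads while 1035 to 1541 had exactly 1, the pattern of read mates counted apart, and counting intervals were therefore computed from reads divided by 2. They cover counting error only. TNF-α replicates 2 and 3 stood apart from the other 4 libraries in their make-up. The share of reads from genes shorter than 2 kb was 14.9% and 13.8% there, whereas it was 8.40% to 8.52% in the control libraries and TNF-α replicate 1. Relative to the NC mean, the median log2(FPKM + 1) of tested genes shorter than 2 kb was shifted by 0.63 and 0.52 in these libraries, and that of genes longer than 5 kb by -0.32 and -0.29, whereas in TNF-α replicate 1 the shifts were -0.03 and 0.00. An FPKM divides the fragments of a gene by its length in kilobases and by the size of the library. The library size used for FPKM was 0.693 and 0.759 of the reads in genes in TNF-α replicates 2 and 3. In the other 4 libraries it was 0.925 to 0.959. A smaller size gives a higher FPKM for the same share of reads. The part of these differences in the results was not tested. The values of the tested ligands and of the main receptors are therefore also given for TNF-α replicate 1 alone against the NC group. The spread in that fit comes from the NC libraries alone.

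The libraries carried the transcripts of the labelled cell type. VIM, NES, CD44, SOX2 and GFAP passed the filter on low values, whereas the glial genes S100B, OLIG2 and AQP4 were at or near 0. Of the 8 astroglial markers 5 were tested, of which 3 had higher and 2 had lower mean values in the TNF-α group. Of these, GFAP alone passed the threshold, as did 1.01% of all tested genes. GFAP, the astrocyte filament gene, had an FPKM of 8.16, 7.10 and 9.47 in the control libraries and of 1.58, 2.60 and 2.39 in the treated libraries, and it fell by 1.54 on the log2(FPKM + 1) scale (limma adjusted p = 0.0210). None of 18 leukocyte and endothelial marker genes passed the filter, and PTPRC (CD45), CD3D, CD3E, CD2, MS4A1 and TYROBP were listed at 0 in all 6 libraries. The summed FPKM of the 18 markers ranged from 1.22 to 1.40 in the NC group and from 0.893 to 2.22 in the TNF-α group. Most of this sum was CD14, a monocyte marker, with an FPKM of 0.660, 0.825 and 0.759 in the control libraries and of 0.528, 1.55 and 1.201 in the treated libraries. CSF1R, CDH5 and PECAM1 also had reads in all 6 libraries. The part of these transcripts in the results was not tested.

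In control cells, 3 of the 10 ligands made up nearly all of the summed FPKM of these 10 genes. The 8 remaining ligands of the superfamily, with a summed FPKM of 340 to 348 in the control libraries, are described below. TNFSF10, TNFSF4 and TNFSF12 together held 98.2% to 99.1% of the summed FPKM of the 10 genes in the control libraries, and 92.0% to 94.4% in the treated libraries. The share of TNF was 0% to 0.757% in the control libraries and 3.85% to 6.40% in the treated libraries. By mean FPKM in the NC group the order was TNFSF10, TNFSF4, TNFSF12, TNFSF13B, TNF, TNFSF9, TNFSF14, TNFSF15, LTA and LTB. The ranges of TNFSF10, TNFSF4 and TNFSF12 did not overlap with those of their neighbours, while from TNFSF13B downwards each gene overlapped with the next. In the TNF-α group TNFSF10 stayed above all others, TNFSF12 and TNFSF4 overlapped, and TNF took the fourth place with values below every TNFSF4 value and above every TNFSF13B value.

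**Figure D1:**
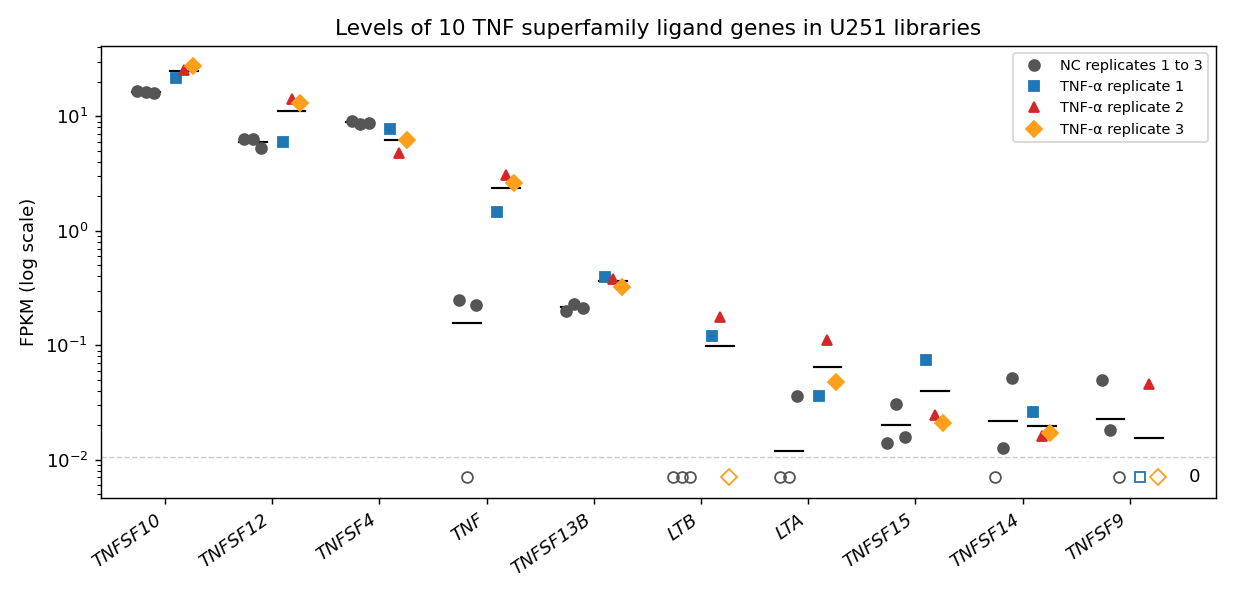
FPKM of the 10 ligand genes on a log axis, with 1 point per library (grey circles for NC replicates 1 to 3, coloured symbols for TNF-α replicates 1 to 3), black bars for group means, and open symbols on the bottom row for libraries at 0. TNF sits at 0 to 0.248 in the control libraries and at 1.45 to 3.08 in the treated libraries, whereas TNFSF10, TNFSF4 and TNFSF12 stay at 4.82 or more in every library.

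TNF, the cytokine itself, was close to silent in control cells and was detected in every treated library (chromosome 6, 31575567 to 31578336, plus strand, GRCh38, within the major histocompatibility complex). Its FPKM was 0.248, 0 and 0.223 in control replicates 1 to 3 and 1.45, 3.08 and 2.63 in treated replicates 1 to 3. These values rest on 15, 0 and 12 reads in the control libraries and on 78, 134 and 107 reads in the treated libraries. The groups did not overlap, and each treated library was at least 9.23 times the NC mean. The mean was 0.157 ± 0.136 (SD, n = 3) in the NC group and 2.39 ± 0.845 (SD, n = 3) in the TNF-α group, a fold of 15.2 between the means. Relative to the reads in genes, the ratio of the groups was 12.1, with an exact 95% counting interval of 6.95 to 23.0. In these cultures more RNA per cell and more cells with the transcript cannot be told apart. TNF moved from above 38.1% to above 56.7% of the protein-coding genes of the table by mean FPKM.

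In limma, fitted over the 12136 genes that reached an FPKM of 1 in 3 or more libraries, TNF rose by 1.52 on the log2(FPKM + 1) scale (SE 0.22, 95% interval 0.99 to 2.06, Benjamini-Hochberg adjusted p = 0.0432). It was the only ligand of the 10 to pass the threshold of 0.05. Over the same genes 123 passed, which is 1.01%, and 87 of them were higher, which is 0.717%. The pseudocount of 1 understates the change of a gene at this level. The exact two-sided permutation test of the same 3 against 3 values gave p = 0.1, the smallest it can give. TNF passed the filter only through its treated libraries, so that it could enter the test only as a gene that was higher there.

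The call of TNF was close to the threshold. Its direction was the same in all settings run, which says little, since TNF passed the filter only through its treated libraries. Of 22 alternative settings, 9 kept the call and 13 lost it, and the log2 fold change lay between 1.04 and 4.51 in all of them. Without NC replicates 1, 2 or 3 the change was 1.58, 1.42 and 1.57, and without TNF-α replicates 2 or 3 it was 1.37 and 1.46, with adjusted p-values of 0.130 to 0.284 in these limma fits. Without TNF-α replicate 1 it was 1.74 (adjusted p = 2.74e-05), in a fit where 79.4% of all genes passed. For TNF-α replicate 1 alone against the NC group it was 1.09 (limma adjusted p = 0.0392), where 6.03% of all genes passed. TNF, a gene of 1676 exonic bases, is shorter than 2 kb, the class whose values were shifted upwards in TNF-α replicates 2 and 3, and after correction for a trend with gene length and GC content its change was 1.04.

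TNFSF10, also known as TRAIL, a ligand that triggers apoptosis through death receptors, was the most abundant ligand of the 10 (chromosome 3, 172505508 to 172523507, minus strand). Its FPKM was 16.8, 16.2 and 16.1 in control replicates 1 to 3 and 21.7, 25.4 and 27.3 in treated replicates 1 to 3. All treated libraries lay above all control libraries. The mean was 16.4 ± 0.347 (SD, n = 3) in the NC group and 24.8 ± 2.82 (SD, n = 3) in the TNF-α group, a fold of 1.52. By reads in genes the ratio of the groups was smaller, at 1.25 (counting interval 1.19 to 1.31). The log2 difference was 0.57 (SE 0.14, 95% interval 0.23 to 0.90), with an unadjusted p = 0.00552 and an adjusted p = 0.159 in limma, and the exact permutation test gave p = 0.1. TNFSF10 therefore did not pass the threshold over all genes. For TNF-α replicate 1 alone the difference was 0.39. With values rescaled to TPM it was 0.09, where the median of all genes was shifted by -0.42.

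TNFSF4, also known as OX40L, a costimulatory ligand for T cells, was the only ligand of the 4 tested with lower values after treatment (chromosome 1, 173183734 to 173207313, minus strand). Its FPKM was 9.06, 8.66 and 8.81 in control replicates 1 to 3 and 7.82, 4.82 and 6.17 in treated replicates 1 to 3. The groups did not overlap, with TNF-α replicate 1 nearest to the controls. The mean was 8.84 ± 0.203 (SD, n = 3) against 6.27 ± 1.51 (SD, n = 3). By reads in genes the ratio of the groups was 0.603 (counting interval 0.558 to 0.652). The log2 difference was -0.46 (SE 0.18, 95% interval -0.88 to -0.03), and it did not pass the threshold (limma adjusted p = 0.195, exact permutation p = 0.1). For TNF-α replicate 1 alone it was -0.16.

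TNFSF12, also known as TWEAK, a ligand of the receptor TNFRSF12A, had similar values in TNF-α replicate 1 and the controls (chromosome 17, 7548891 to 7557890, plus strand). Its FPKM was 6.38, 6.38 and 5.27 in control replicates 1 to 3 and 5.96, 14.1 and 13.1 in treated replicates 1 to 3. TNF-α replicate 1 lay among the controls, and the higher values were those of the libraries that stood apart. The mean was 6.01 ± 0.64 (SD, n = 3) against 11.1 ± 4.43 (SD, n = 3), and the log2 difference of 0.71 (SE 0.31) did not pass the threshold (limma adjusted p = 0.195, exact permutation p = 0.3). For TNF-α replicate 1 alone it was -0.01, and after correction for gene length and GC content it was 0.06. The ratio of the groups by reads in genes was 1.47 (counting interval 1.32 to 1.64). Of the exonic length of TNFSF12, 29.4% is shared on the same strand with the readthrough gene TNFSF12-TNFSF13, which was listed at 0 in all libraries, so that its value is uncertain to that extent.

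Unadjusted p-values under 0.05 were found for TNF, TNFSF10 and TNFSF4, and for 24.2% of all tested genes. The same 3 genes did not overlap between the groups, which held for 30.1% of all tested genes. Without TNF-α replicate 1 all 4 tested ligands passed the threshold, with TNFSF10 at 0.65, TNFSF4 at -0.61 and TNFSF12 at 1.06, in the fit where most of the tested genes did so.

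**Figure D2:**
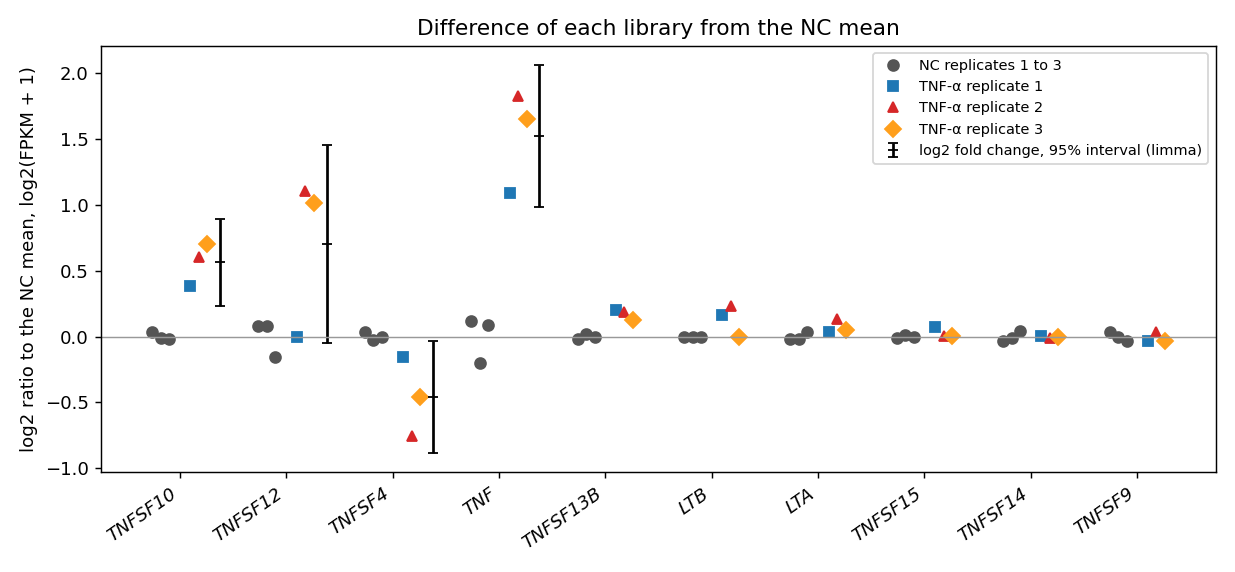
Difference of each library from the NC mean in log2(FPKM + 1) for the 10 ligand genes (grey circles for NC, coloured symbols for TNF-α replicates 1 to 3), with the limma log2 fold change and its 95% interval in black for the 4 genes past the filter. TNF has the highest interval, 0.99 to 2.06, the interval of TNFSF12 spans 0, and the 6 genes under the filter lie close to 0 on this scale.

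The other 6 ligands did not reach an FPKM of 1 in any library and were not tested. TNFSF13B, also known as BAFF, the survival factor of B cells, was the highest of them (chromosome 13, 108251240 to 108308484, plus strand). Its FPKM was 0.199, 0.229 and 0.214 in control replicates 1 to 3 and 0.397, 0.378 and 0.323 in treated replicates 1 to 3, from 22, 23 and 21 reads against 39, 30 and 24 reads. The groups did not overlap and their means were 0.214 ± 0.0151 (SD, n = 3) and 0.366 ± 0.0383 (SD, n = 3), with an exact permutation p of 0.1. Relative to the reads in genes, the ratio was 1.45, and its counting interval of 0.906 to 2.33 included no change. In the 3 limma settings with a lower filter its adjusted p lay between 0.234 and 0.356.

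LTB, lymphotoxin-β, which joins lymphotoxin-α in a membrane-bound trimer, was listed at 0 in all NC libraries. It had 6, 7 and 0 reads in treated replicates 1 to 3. Relative to the reads in genes, the exact 95% counting interval of its ratio had a lower limit of 1.34, but TNF-α replicate 3 had no read and the groups overlapped. LTA, lymphotoxin-α, had 0, 0 and 2 reads in the control libraries and 2, 5 and 2 reads in the treated libraries, a ratio of 4.62 with a counting interval of 0.489 to 222. A difference of LTA was thus not detectable at this depth.

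The T cell costimulatory ligands TNFSF15, TNFSF14 and TNFSF9 had few reads, at most 19 in any library. TNFSF15, also known as TL1A, had 4, 8 and 4 reads in the control libraries and 19, 5 and 4 reads in the treated libraries, a ratio of 1.80 with a counting interval of 0.703 to 4.94. TNFSF14, also known as LIGHT, had 0, 2 and 8 reads against 4, 2 and 2 reads. TNFSF9, also known as 4-1BBL, had 3, 1 and 0 reads against 0, 2 and 0 reads. The counting intervals of their ratios, 0.163 to 3.81 for TNFSF14 and 0.0087 to 9.85 for TNFSF9, allow for changes in either direction.

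The receptors of these ligands were read from the same fit, as a list of 29 TNF receptor superfamily genes. A total of 9 passed the filter, of which 8 had higher and 1 had lower mean values in the TNF-α group, with a median log2 difference of 0.42 against 0.04 over all tested genes. Of all 12136 tested genes, 6432 were higher and 5704 were lower. The threshold was passed by 2 receptors, TNFRSF9 and TNFRSF10B, both higher, and by 1.01% of all tested genes. TNFRSF9, also known as 4-1BB or CD137, the receptor of TNFSF9, had an FPKM of 0.446, 0.303 and 0.330 in the control libraries and of 7.72, 6.07 and 5.20 in the treated libraries. It rose by 2.42 on the log2(FPKM + 1) scale (SE 0.16, limma adjusted p = 0.00316), TNF-α replicate 1 had its highest value, and the difference was 2.68 for that replicate alone. The 2 partners thus stood at different levels, since TNFSF9 had 0 to 3 reads per library. TNFRSF9, like TNF, passed the filter only through its treated libraries. The receptor with lower values was TNFRSF21 (DR6), with an FPKM of 7.77, 7.32 and 7.95 against 5.46, 3.63 and 3.46 and a log2 difference of -0.76 (limma adjusted p = 0.144).

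TNFRSF10B, also known as DR5, a death receptor of TNFSF10, had an FPKM of 37.6, 36.3 and 39.3 in the control libraries and of 76.6, 76.0 and 69.2 in the treated libraries. It rose by 0.95 (SE 0.13, limma adjusted p = 0.0384), all treated libraries lay above all controls, and 12 of 22 alternative settings lost the call. For TNF-α replicate 1 alone the difference was 1.004. The ratio of the groups by reads in genes was 1.65 (counting interval 1.60 to 1.69). The remaining receptors that bind TNFSF10 were low. TNFRSF10A (DR4) had 0 to 2 reads per library, and the decoy receptors TNFRSF10C and TNFRSF10D had 0 to 8 and 0 to 6 reads. Of the exonic length of TNFRSF10C, 39.3% is shared with other genes on the same strand, so that its value is uncertain to that extent. The soluble decoy TNFRSF11B (osteoprotegerin) had an FPKM of 0.0546 to 0.671 with overlapping groups.

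**Figure D3:**
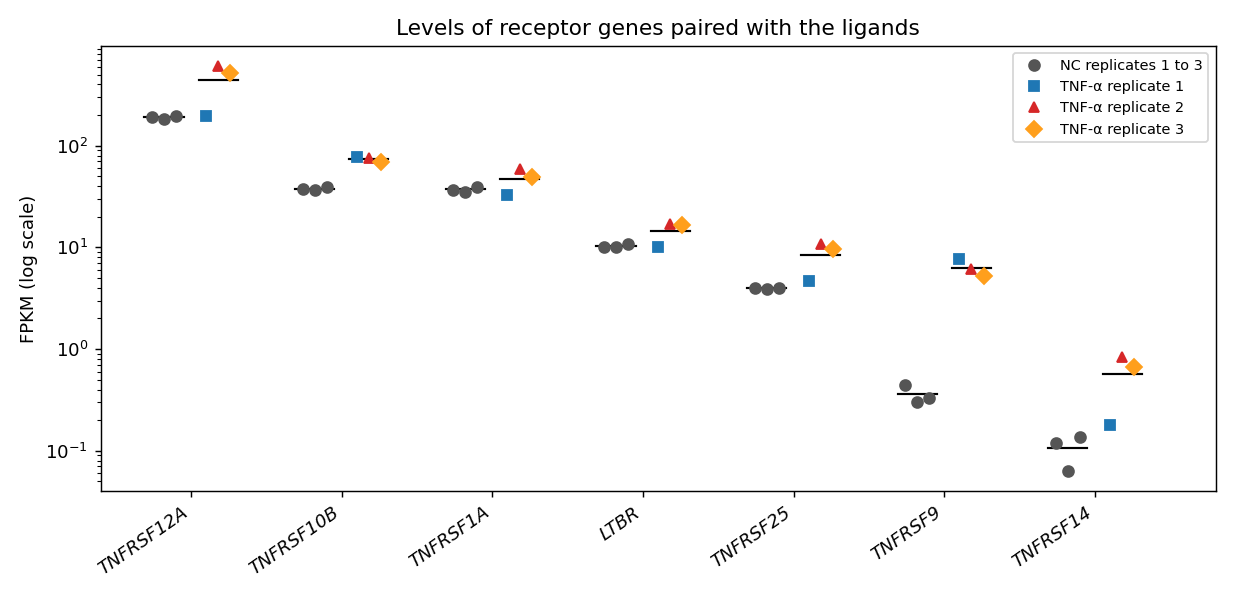
FPKM on a log axis of 7 receptor genes paired with the ligands, with 1 point per library (grey circles for NC, coloured symbols for TNF-α replicates 1 to 3) and black bars for group means. TNFRSF10B and TNFRSF9 are higher in all 3 TNF-α libraries, while TNF-α replicate 1 lies among or next to the controls for TNFRSF12A, TNFRSF1A and LTBR.

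The receptors of TNF were unequal in level. TNFRSF1A, the broadly expressed receptor with a death domain, had an FPKM of 37.0, 35.4 and 39.5 in the control libraries and of 32.9, 58.4 and 49.1 in the treated libraries. Its log2 difference of 0.28 did not pass the threshold (limma adjusted p = 0.354), and it was -0.17 for TNF-α replicate 1 alone. The ratio of the groups by reads in genes was 1.02 (counting interval 0.993 to 1.06). TNFRSF1B, the receptor without a death domain, had 4 reads in NC replicate 3 and none in the other 5 libraries. LTBR, the receptor of LTB and TNFSF14, had an FPKM of 10.1, 10.1 and 10.8 against 10.2, 16.9 and 16.4, with a log2 difference of 0.42 (limma adjusted p = 0.199) that was -0.02 for TNF-α replicate 1 alone.

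TNFRSF12A, the receptor of TNFSF12 and the most abundant receptor of the list, was higher only in TNF-α replicates 2 and 3, as was its ligand. Both genes are shorter than 2 kb, the class whose values were shifted upwards in these libraries. The FPKM of TNFRSF12A was 191, 182 and 196 in the control libraries and 194, 606 and 522 in the treated libraries. Its log2 difference of 1.05 did not pass the threshold (limma adjusted p = 0.195). It was 0.035 for TNF-α replicate 1 alone, and 0.39 after correction for gene length and GC content. TNFRSF25 (DR3), the receptor of TNFSF15, had an FPKM of 4.0, 3.92 and 3.98 against 4.65, 10.9 and 9.63, with a log2 difference of 0.85 (limma adjusted p = 0.195) that was 0.19 for TNF-α replicate 1 alone. TNFRSF14, the herpesvirus entry mediator that binds TNFSF14 and LTA, was under the filter with 27, 13 and 27 reads against 36, 136 and 101 reads. The ratio of TNFRSF14 relative to the reads in genes was 4.18, with a counting interval of 2.85 to 6.30, most of it from the libraries that stood apart.

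The receptors of TNFSF4 and TNFSF13B had few reads or none. TNFRSF4 (OX40), the receptor of TNFSF4, had 5 reads in TNF-α replicate 1 and none elsewhere. Of the receptors of TNFSF13B, TNFRSF13B and TNFRSF17 were listed at 0 in all libraries, and TNFRSF13C had 11 to 28 reads per library with overlapping groups. TNFRSF6B, a soluble decoy for TNFSF14 and TNFSF15, was also listed at 0, and its whole exonic length is shared with other genes on the same strand.

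Of the 8 remaining ligands of the superfamily, CD70, a costimulatory ligand that binds CD27, exceeded all 10 genes described above. Its FPKM was 342, 337 and 345 in the control libraries and 295, 920 and 779 in the treated libraries. The groups overlapped, the log2 difference of 0.80 did not pass the threshold (limma adjusted p = 0.217), and it was -0.21 for TNF-α replicate 1 alone. TNFSF13 (APRIL) had an FPKM of 1.45 to 1.95 and TNFSF18 (GITRL) of 1.11 to 1.52, and neither passed the threshold. TNFSF13 shares 55.5% of its exonic length with TNFSF12-TNFSF13 on the same strand, so that its value is uncertain to that extent. FASLG, TNFSF8 and EDA had 0 to 4 reads per library, and CD40LG and TNFSF11 were listed at 0. Of these 8 genes 3 were tested, and none passed the threshold or an unadjusted p of 0.05 in limma.

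Several of the ligand genes lie side by side in the genome, and their neighbours were read from the same fit. TNF lies between LTA and LTB on chromosome 6, within 31572054 to 31582522. TNF had 78 to 134 reads in the treated libraries where LTA had 2 to 5 and LTB 0 to 7. NFKBIL1, the gene on the other side of LTA, had an FPKM of 8.49, 9.10 and 9.36 in the control libraries and of 8.78, 41.1 and 31.3 in the treated libraries, a log2 difference of 1.25 (limma adjusted p = 0.195) that was -0.03 for TNF-α replicate 1 alone. On chromosome 19 CD70 lies near TNFSF9 and TNFSF14, which had at most 8 reads. TNFSF18, the neighbour of TNFSF4 on chromosome 1, had a log2 difference of -0.05 (limma adjusted p = 0.747).

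Genes that release or process the membrane forms were examined because the ligands act both on the surface and in solution. Of a list of 12, 9 passed the filter, with 6 higher and 3 lower mean values, and none passed the threshold in limma. An unadjusted limma p under 0.05 was found for 2 of them, and for 24.2% of all tested genes. RHBDF2 (iRhom2), which carries the TNF-cleaving protease ADAM17 to the surface, came nearest. Its FPKM was 0.975, 1.08 and 0.922 in the control libraries and 2.08, 2.63 and 2.33 in the treated libraries. The groups did not overlap, and the log2 difference was 0.74 (SE 0.12, limma adjusted p = 0.0611), or 0.63 for TNF-α replicate 1 alone. Like TNF, RHBDF2 passed the filter only through its treated libraries, since 1 control library reached an FPKM of 1. ADAM17 itself had an FPKM of 5.44, 5.78 and 5.13 against 6.30, 1.26 and 1.45, and its log2 difference of -0.91 (limma adjusted p = 0.198) was 0.18 for TNF-α replicate 1 alone.

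Genes that act on AU-rich and related messengers were all expressed. Of a list of 11, all passed the filter, with 4 higher and 7 lower mean values and a median log2 difference of -0.08. Over all tested genes 6432 were higher and 5704 lower, the median was 0.04, and 1.01% passed the threshold. In the list it was passed by ZC3H12A (regnase-1), an endonuclease that degrades inflammatory messengers and is itself a known NF-kB target. Its FPKM was 3.52, 3.44 and 4.21 in the control libraries and 10.1, 11.01 and 11.8 in the treated libraries. It rose by 1.34 on the log2(FPKM + 1) scale (SE 0.13, limma adjusted p = 0.0116), the groups did not overlap, and the difference was 1.23 for TNF-α replicate 1 alone. Of 22 alternative settings 8 lost the call, among them the correction for gene length and GC content, where the change was 0.76 (limma adjusted p = 0.137). ZFP36 (tristetraprolin), which binds the AU-rich element shown above, had an FPKM of 5.36, 5.63 and 5.10 against 6.36, 5.01 and 7.72, with a log2 difference of 0.20 (limma adjusted p = 0.372).

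The genes with profiles most like the tested ligands were taken by Pearson's r of log2(FPKM + 1) over the 6 libraries, which all genes share. For TNF they were MAFF, a small MAF transcription factor, with r = 0.999, BTN3A2 with r = 0.997 and TTC27 with r = 0.997. For TNFSF10 they were APOBEC3G, a cytidine deaminase, with r = 0.998, PLK3 with r = 0.996 and UAP1 with r = 0.996. GAS1, ATP6V1C1 and HNRNPF were nearest to TNFSF4, and SPG21, SRP19 and TXN were nearest to TNFSF12. With 6 points and 12136 genes to choose from, such values are a description of these libraries.

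**Figure D4:**
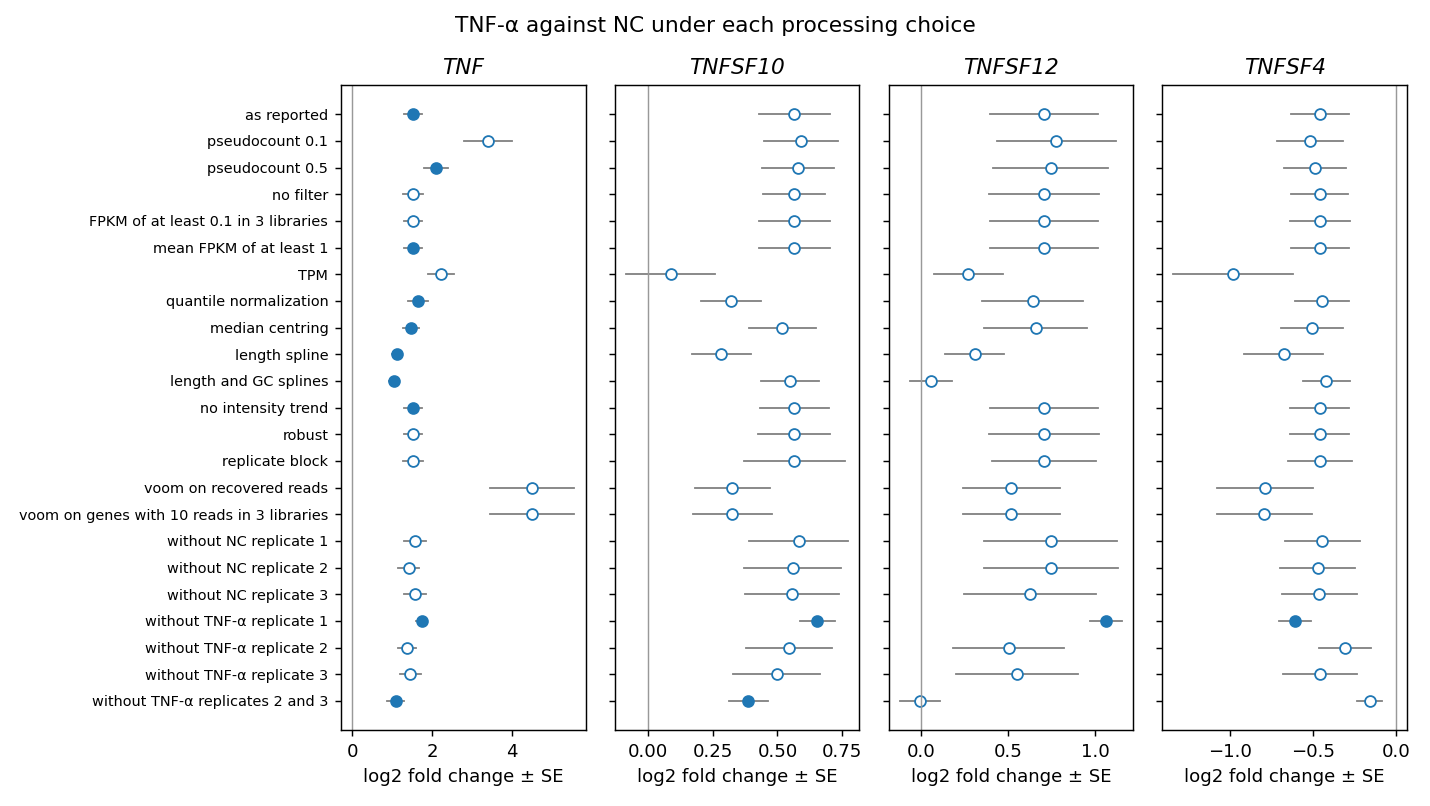
Log2 fold change of TNF, TNFSF10, TNFSF12 and TNFSF4, TNF-α against NC, as reported and under each of 22 alternative settings, with bars of 1 SE and filled points where the limma adjusted p was under 0.05 (the horizontal scale differs between panels). TNF stays between 1.04 and 4.51 with 9 alternatives filled, and TNFSF12 runs from -0.01 to 1.06.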

How the data were processed

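Poly(A) RNA of U251 cells was sequenced in 6 libraries, 3 per group. The authors deposited FPKM per gene, not log-transformed and not pooled. The submitters' processing notes name HISAT2 2.0.5, StringTie 1.3.3b and featureCounts 1.5.0, without their roles. The genome build and the use of strand are not given in the sources used here. All 58735 genes matched GENCODE release 29 (GRCh38) in identifier, name, position and merged exon length. Another 6 per-sample columns carry names of none of these samples and were not used.

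FPKM multiplied by gene length gave whole multiples of 1 step per library for 100% of values within 0.01, which were taken as reads. Depth ranged from 31992167 to 37897044 reads in genes. PCR duplicates are not covered by the counting intervals (exact, Clopper-Pearson). Groups were compared with limma 3.58.1 in R 4.3.3 on log2(FPKM + 1). The 12136 genes that reached an FPKM of 1 in 3 or more libraries were tested (eBayes with an intensity trend, two-sided, Benjamini-Hochberg over these genes, threshold 0.05). The fit was also run on simulated reads that gave every library the make-up of the NC group. That run lacked the shift in make-up of TNF-α replicates 2 and 3 and says nothing on it. Adjusted p-values come from limma. Exact permutation tests of 3 against 3 values cannot give a p below 0.1. Figures were drawn with Python 3.11.15 and matplotlib 3.10.9.

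The members and gene lists were chosen with earlier results of these data known. All 10 members were named, together with their paired receptors, the listed genes past the threshold (up to 5 a list), the remaining ligands, and the 3 genes most like each tested member. RHBDF2, ADAM17, ZFP36, TNFRSF21 and GFAP were named after their values were seen, and NFKBIL1 as a neighbour. Motifs and the 10-read filter were chosen later. The alternatives changed the pseudocount, filter, scaling, correction for gene length and GC content, moderation, replicate block, count model (limma-voom on the reads) and libraries.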

Additional observations from a re-analysis of the deposited data

How the results depend on the processing

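Of 12136 genes tested, 123 passed the threshold as reported. Their number was 58 without a filter and with TPM, 185 after quantile normalization, 261 after the length and GC correction, 77 with limma-voom and 732 with TNF-α replicate 1 alone against the NC group. It was 10 to 9630 when 1 library was left out. The deviations of same-numbered libraries from their group means correlated at -0.01, -0.18 and 0.12. Whether replicate numbers pair the samples cannot be decided from these values, since TNF-α replicates 2 and 3 stood apart in make-up. With the replicate block 24 genes, 0 ligands and 1 receptor passed, with TNF at 1.52 (limma adjusted p = 0.160). Not every library correlated best with its own number.

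The number of ligands past the threshold was 1 as reported. It was 0 with a pseudocount of 0.1, without a filter, with an FPKM filter of 0.1 and with TPM. It was also 0 with robust moderation and with limma-voom, and 0 to 4 when 1 library was left out. The number of receptors was 2 as reported. It was 1 without a filter, with an FPKM filter of 0.1, with TPM, after quantile normalization and with limma-voom. When 1 library was left out it was 0 to 8. The highest counts, 4 ligands and 8 receptors, came from the fit without TNF-α replicate 1, where 79.4% of all genes passed. TNF lost its call at 3.41 (pseudocount 0.1), 1.52 (no filter, FPKM filter of 0.1 and robust moderation), 2.22 (TPM), and 4.51 and 4.50 (limma-voom, the latter on genes with 10 reads in 3 libraries, added after seeing the data). Leaving out 1 library gave 1.37 to 1.74 for TNF, 0.50 to 0.65 for TNFSF10, 0.50 to 1.06 for TNFSF12 and -0.61 to -0.31 for TNFSF4. With TNF-α replicate 1 alone TNFSF10 was at 0.39, in a fit that holds no spread of treated libraries.

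With TNF-α replicate 1 alone, the direction turned for TNFSF12 (-0.0052), LTBR (-0.023), TNFRSF1A (-0.17), ADAM17 (0.18), CD70 (-0.21), TNFSF13 (-0.040), TNFSF18 (0.044) and NFKBIL1 (-0.029). It also turned with TPM for LTBR (-0.051), TNFRSF1A (-0.21) and TNFSF13 (-0.31), after quantile normalization for TNFRSF1A (-0.17) and TNFSF18 (0.10), after the length and GC correction for TNFRSF1A (-0.14) and TNFSF13 (-0.49), after the length correction for TNFSF13 (-0.30), with both limma-voom fits for TNFSF13 (-0.14), and when 1 library was left out for TNFSF18 (-0.10 to 0.026). The cause was not tested. TNF, TNFSF10, TNFSF4, TNFRSF9, TNFRSF10B, TNFRSF12A, TNFRSF25, RHBDF2 and ZC3H12A kept their direction in all 22 alternatives. For TNF, TNFRSF9 and RHBDF2 this says little, since they passed the filter only through their treated libraries. TPM and limma-voom moved the median of all genes from 0.04 to -0.42 and -0.21, so that relative to it TNFSF10 at 0.09 with TPM was higher. The 2 planned count models with edgeR were not run, because the deposited unit is FPKM. Values under about 0.1 FPKM rest on a few reads.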
